A study of Danio rerio and Xenopus laevis and Xenopus tropicalis with 8 samples.

Results

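The maternal transcripts vegt and otx1 were followed section by section along the animal–vegetal axis of frog oocytes. The genes were taken by symbol: vegt and otx1 in Xenopus tropicalis, and otx1.L together with the rows vegt.L and vegt.S in Xenopus laevis, where the suffixes mark the 2 copies that a gene can have in the duplicated genome of this species. This gave 3 of 30169 gene rows in X. laevis oocyte 1, 3 of 28767 in X. laevis oocyte 2, 2 of 15952 in X. tropicalis oocyte 1 and 2 of 15496 in X. tropicalis oocyte 2. A copy otx1.S was not analysed here.

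Tomo-seq is a method in which an embedded sample is cut into thin frozen slices and the polyadenylated RNA of each slice receives a section barcode and a random molecular barcode (UMI), so that counts of molecules are obtained by position. The study applied it to 2 mature oocytes of X. laevis and 2 of X. tropicalis, and to 3 one-cell zebrafish embryos, to compare which RNAs lie at the vegetal pole in each species. The oocytes were untreated, came from ovary lobes of wild-type frogs, and were freed from the lobes with liberase. X. tropicalis was cut at 10 µm, and X. laevis at 16 µm for one oocyte and 18 µm for the other. Nothing in the labels says whether the 2 oocytes of a species came from separate females, so that p-values hold for these oocytes only. With 2 oocytes per species, these p-values rest mainly on the dispersion (spread) shared across genes.

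VegT is a T-box transcription factor whose RNA is stored at the vegetal side of the Xenopus oocyte. The protein starts the endoderm program in the vegetal cells of the embryo and induces the Nodal signals that form mesoderm. Otx1 is a homeobox transcription factor that is also loaded maternally and acts with VegT and the Nodal effector Foxh1 at enhancers of endoderm genes. RNAs reach the vegetal pole of the oocyte by an early route through the mitochondrial cloud, which carries germ plasm RNAs such as nanos1 and dazl, and by a later route along the vegetal cytoskeleton, which carries vegt.

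The frog tables held 13305606 to 33187809 counts per oocyte. Sections with few counts were set aside (below 10% of the median for the oocyte), and the 62 to 72 sections left held over 99.3% of the counts. They were divided in order into a vegetal, a middle and an animal region with equal numbers of sections, a remainder going to the middle. The vegetal region held 10.8% to 20.4% of the counts of an oocyte. For 6 germ plasm or vegetal pole RNAs (nanos1, dazl, ddx25, grip2, trim36 and pgat), 91% to 99.6% of the level lay in the vegetal region of each of the 4 oocytes. In X. tropicalis oocyte 1, 1 section with 64765 counts lay apart from the others beyond a run of nearly empty sections. Several, but not all, of the results that it moves are also given without it. Of 16 oocyte markers, 11 were detected in X. laevis and 14 in X. tropicalis.

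All frog members were far higher at the vegetal end, but the shapes differed. Both copies of vegt and X. tropicalis vegt formed a broad plateau that began near the middle of the axis. In contrast, the level of otx1 increased toward the vegetal pole and was highest near its end. To remove the uneven RNA content of the sections, counts were divided by the total of the section. The level of a gene is its share of all counts there, given as CPM (counts per 1000000 counts). In a 3-section running mean, the otx1 level peaked at 94.4% and 93.8% of the axis in X. laevis and at 96.5% and 99.3% in X. tropicalis. The vegt level peaked at 78.2% and 74.3% for vegt.L, at 75% and 74.3% for vegt.S and at 72.5% and 97.8% for X. tropicalis vegt. In X. tropicalis oocyte 2 the peaks of vegt and otx1 thus lay only 1.45 points apart. Without the detached section, X. tropicalis oocyte 1 had its peaks at 73.6% for vegt and 99.3% for otx1. In raw counts otx1 peaked further from the vegetal end, at 84.7% and 75.7% in X. laevis and 78.2% and 71.7% in X. tropicalis.

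**Figure D1:**
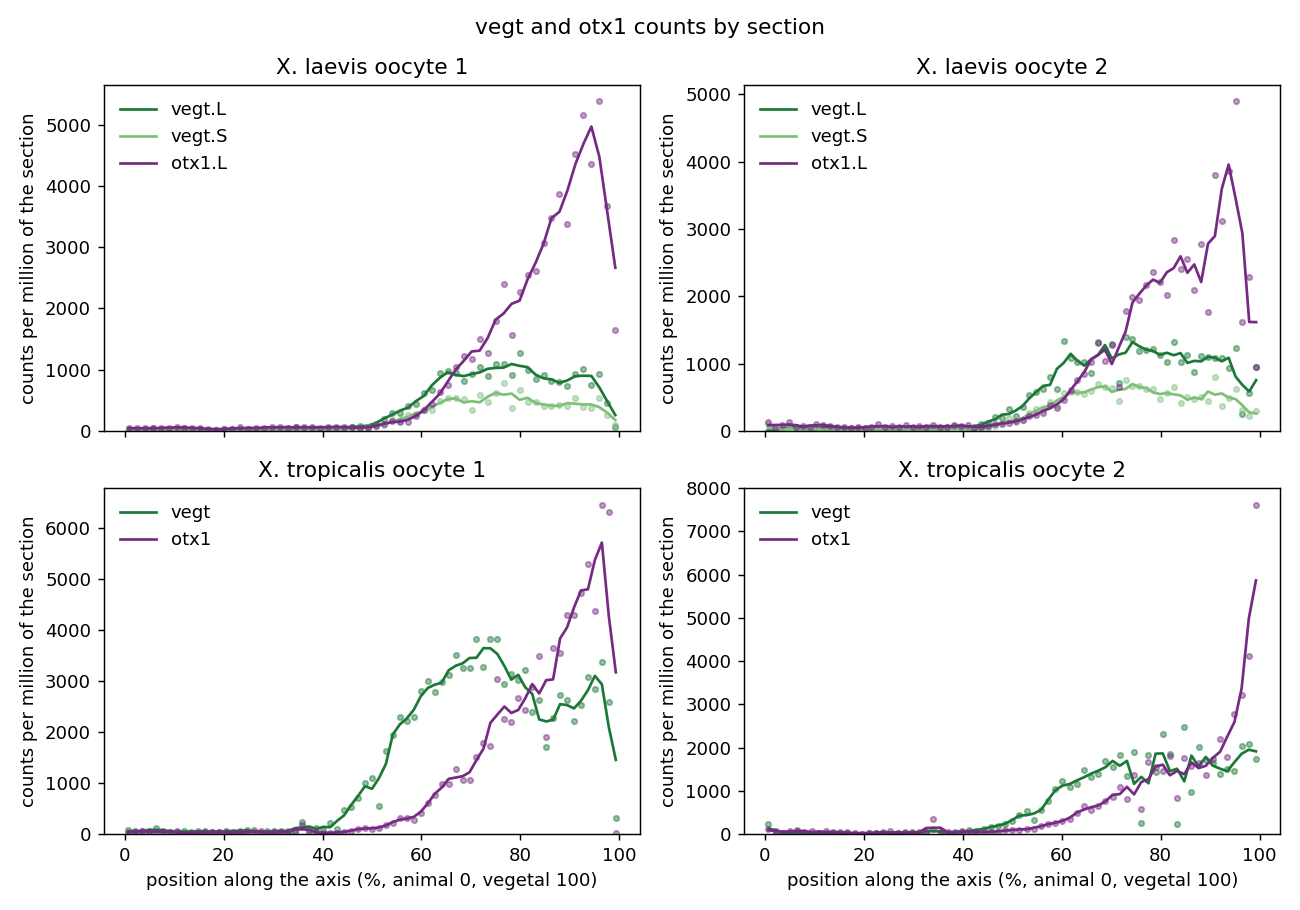
CPM of the section for vegt and otx1 in each section (points) and as a 3-section running mean (lines), along the axis of 4 frog oocytes, with the animal end at 0 and the vegetal end at 100. The green vegt curves form a plateau from about the middle of the axis. The purple otx1 points reach 4894 to 7622 CPM in the highest single sections near the vegetal end.

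The share of the level that lay in the vegetal region separated the genes. For otx1.L it was 90.8% and 86.7% in X. laevis oocytes 1 and 2, and for otx1 it was 89.5% and 88.6% in X. tropicalis oocytes 1 and 2. For vegt.L the share was 70.9% and 69.4%, for vegt.S 69.5% and 67.5%, and for X. tropicalis vegt 64.7% and 74.8%. All otx1 values thus lay above all vegt values. Without the detached section, X. tropicalis oocyte 1 had 68.1% for vegt and 91.1% for otx1. Most of the remaining vegt level was in the middle region, with 23.4% to 33.9% of the level per oocyte, against 7.65% to 10.5% for otx1. The animal region held 1.19% to 3.50% of the level of any member. These are shares of summed section levels and not of the counts. In raw counts the vegetal region of oocytes 1 and 2 held 47.97% and 51.3% of vegt.L and 45.5% and 50.06% of vegt.S. It held 37.2% and 49.9% of X. tropicalis vegt. The middle region held 46.1% to 59.6% of the counts of a vegt row, the highest in X. tropicalis oocyte 1. For otx1 the vegetal region held 66.7% to 74.9% of the counts.

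The centre of mass of the profile, with 0 at the animal and 100 at the vegetal end, was at 74.7 and 73.7 for vegt.L, at 74.2 and 72.5 for vegt.S, and at 83.9 and 80.6 for otx1.L. In X. tropicalis it was at 73.3 and 76.6 for vegt and at 83.7 and 84.1 for otx1. In each of the 4 oocytes vegt lay closer to the animal end than otx1, with a difference of -9.66 to -6.93 points in X. laevis and of -10.4 and -7.45 points in X. tropicalis oocytes 1 and 2. Without the detached section, X. tropicalis oocyte 1 had its centres at 74.3 for vegt and 84.9 for otx1. Sections of 1 oocyte are not replicates, and these positions were not tested.

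The width was measured as the shortest stretch from the vegetal end that holds 50% of the level. This stretch covered 24.2% and 26.4% of the axis for both vegt.L and vegt.S in X. laevis, and 26.8% and 21.7% for vegt in X. tropicalis. The corresponding stretch was 12.9% and 16.7% for otx1.L and 14.1% and 11.6% for otx1. Without the detached section, it was 25.7% for vegt and 12.9% for otx1 in X. tropicalis oocyte 1. The vegt stretch was wider by 9.72 to 12.7 points of the axis in every oocyte. A stretch with 80% of the level covered 36.2% to 40.3% of the axis for vegt and 25.4% to 29.2% for otx1.

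The width of the peak itself depended on how it was measured. At 50% of the maximum of a 3-section running mean, the vegt.L and vegt.S peaks both spanned 37.1% and 41.7% of the axis, and the X. tropicalis vegt peak spanned 45.1% and 42%. The otx1.L peak spanned 16.1% and 22.2%, and the otx1 peak 14.1% and 4.35%. Without the detached section, X. tropicalis oocyte 1 had 45.7% for vegt and 11.4% for otx1. The vegt peaks passed 50% of their maximum at 53.5% to 59.7% of the axis, whereas the otx1 peaks did so at 75% to 95.7%. The narrow otx1 peak of X. tropicalis oocyte 2 rests on its last section, which had 109 otx1 counts among 14301 counts in all. Without smoothing, vegt spanned 1.45% of the axis and otx1 2.90% in this oocyte, and vegt.S spanned 6.45% and otx1.L 14.5% in X. laevis oocyte 1. In raw counts the vegt peaks were broader than that of otx1 in X. laevis oocyte 1 alone (17.7% for vegt.L and 19.4% for vegt.S, against 16.1%), and narrower in the other oocytes, with 12.5% for either copy against 26.4% in X. laevis oocyte 2, and 19.7% and 18.8% for vegt against 28.2% and 21.7% for otx1 in X. tropicalis. With all sections kept, X. laevis oocyte 1 had 3.13% for either vegt copy against 10.4% for otx1.L. The stretch from the vegetal end with 50% of the level was wider for vegt in each oocyte under these settings too.

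Divided into 10 equal parts, numbered from the animal end, the axis showed where each gene began to rise. In X. laevis oocyte 1, vegt.L had 47.7 CPM in part 4, 335 in part 6, 1057 in part 8 and 756 in part 10. In the same parts of this oocyte, otx1.L had 60.1, 177, 1701 and 4331 CPM. From part 4 to part 6 the vegt level, both copies summed, increased 7.33-fold and 11.1-fold in X. laevis and 26.2-fold and 15.7-fold in X. tropicalis. The otx1 level increased 2.94-fold and 3.34-fold in X. laevis and 6.66-fold and 3.95-fold in X. tropicalis over this stretch. From part 8 to part 10, by contrast, vegt came to 0.703 and 0.728 times its level in X. laevis and to 0.647 and 0.949 times in X. tropicalis. Over this stretch otx1 came to 2.55, 1.66, 1.85 and 2.41 times its level in these 4 oocytes. In X. tropicalis oocyte 1, part 10 includes the detached section with 64765 of its 252175 counts, and values by part without that section are not given here.

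The number of vegt counts per otx1 count therefore changed along the axis within every oocyte. The ratio was highest in part 6 in X. laevis, at 3.004 and 3.38 with both vegt copies summed. In X. tropicalis it was highest in part 5 of oocyte 1, at 8.54, and in part 6 of oocyte 2, at 3.66. In part 10 it was 0.265 and 0.413 in X. laevis and 0.566 and 0.536 in X. tropicalis. The fold between the highest part and part 10 was 11.3, 8.20, 15.1 and 6.83 in these oocytes. These ratios compare positions, since counts per molecule of different genes can differ.

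**Figure D2:**
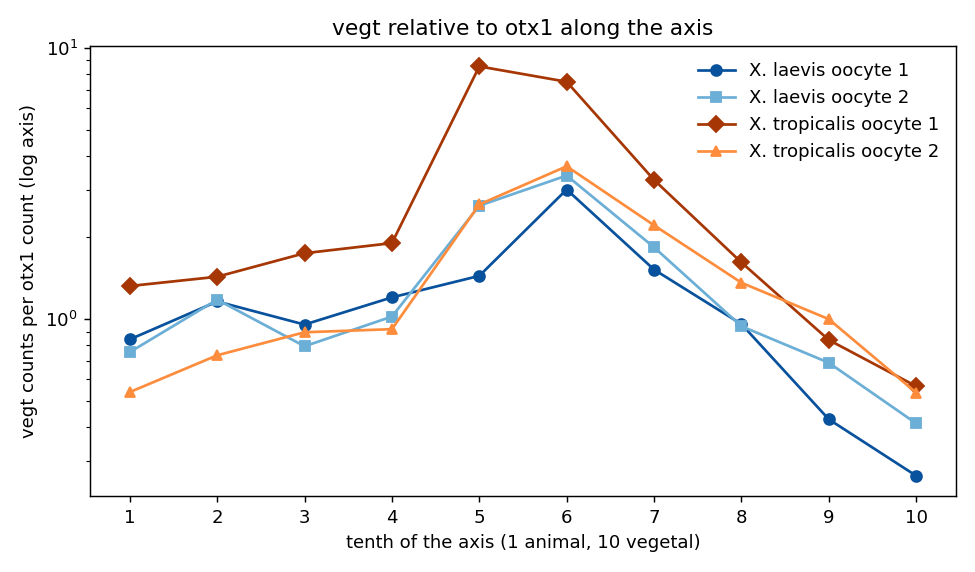
Counts of vegt (both copies summed in X. laevis) per count of otx1 in each of 10 equal parts of the axis, from the animal to the vegetal end, on a log axis, with 1 line per oocyte. All 4 lines peak in part 5 or 6 and are lowest in part 10, between 0.265 and 0.566. In X. tropicalis oocyte 2, part 1 is nearly as low, at 0.538 from 21 vegt and 39 otx1 counts. Part 10 of X. tropicalis oocyte 1 includes the detached section.

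Summed over the regions, all members passed the test of the vegetal against the animal region. In X. laevis, vegt.L had 920 and 1165 CPM in the vegetal region, against 30.2 and 40.9 CPM in the animal region. The copy vegt.S had 473 and 589 CPM in the vegetal region, against 19.3 and 23.1 CPM in the animal region. For otx1.L these values were 2418 and 1957 CPM in the vegetal region, against 51.3 and 66.7 CPM in the animal region. No vegetal value of a gene overlapped its animal values, but the share of all genes for which this holds is not given here.

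The log2 fold change in X. laevis was 4.88 ± 0.14 (SE) for vegt.L, 4.64 ± 0.14 for vegt.S and 5.21 ± 0.16 for otx1.L, with edgeR adjusted p-values of 7.42e-18, 1.61e-17 and 1.89e-17 (edgeR quasi-likelihood test, Benjamini-Hochberg over 17346 genes). All 3 members were called higher, against 13.9% of all genes tested, while 17.3% were called lower. Over all genes the median was -0.02.

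In X. tropicalis, vegt had 2995 and 1615 CPM in the vegetal region, against 63.3 and 35.4 CPM in the animal region. For otx1 the values were 2299 and 1361 CPM in the vegetal region, against 42.4 and 43.2 CPM in the animal region. Oocyte 1 was higher in the vegetal region for both genes, whereas in the animal region only vegt differed between the oocytes beyond the 95% counting intervals. The log2 fold change was 5.54 ± 0.17 (SE) for vegt and 5.38 ± 0.17 for otx1, with edgeR adjusted p-values of 8.58e-168 and 9.51e-154. Both members were called higher, against 9.62% of 10253 genes tested, while 17.4% were called lower. These calls held under every alternative that allowed a test. Without the oocyte as a block the edgeR adjusted p-values were 0.0127 for vegt and 0.00932 for otx1. Over all frog members and alternatives the log2 fold changes were 4.36 to 5.77, including those with 1 oocyte left out, which give a value without a test.

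**Figure D3:**
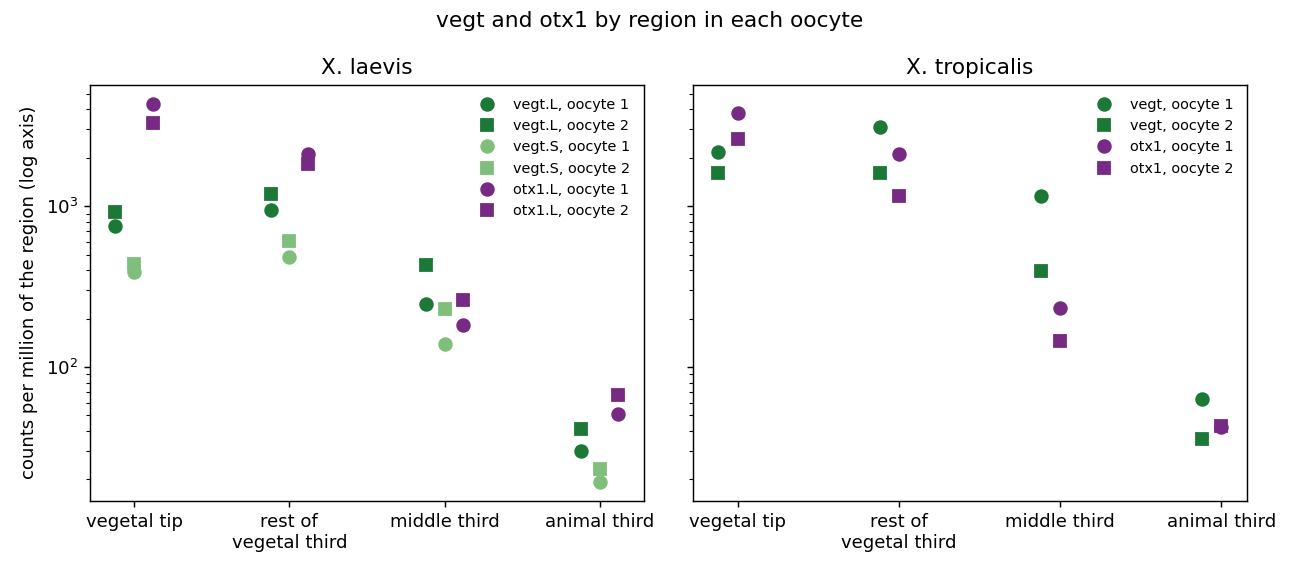
CPM of the region for each member in the vegetal tip (last 10% of the sections), the rest of the vegetal region, the middle region and the animal region, on a log axis, with circles for oocyte 1 and squares for oocyte 2. From the rest of the vegetal region to the tip, otx1 is higher in the tip in all 4 oocytes, and the vegt points are level with or below those of the rest.

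The levels are shares, so that a level alone cannot tell more of an RNA in a region from less of all other RNA there. Counts over equal numbers of sections were also higher in the vegetal region. In X. laevis they were 3719 and 7838 against 303 and 404 for vegt.L, 1912 and 3963 against 194 and 228 for vegt.S, and 9778 and 13168 against 515 and 658 for otx1.L. In X. tropicalis they were 6569 and 2830 against 572 and 168 for vegt, and 5043 and 2384 against 383 and 205 for otx1. Each oocyte is a single cell, but follicle cells and blood can adhere to it. In X. laevis the summed level of 15 follicle cell markers was 112 and 148 CPM in the vegetal region, against 32.9 and 31.6 CPM in the animal region. That of 8 blood markers was 636 and 302 CPM in the vegetal region, against 178 and 205 CPM in the animal region. In each of these regions 10 follicle markers and 3 or 4 blood markers were detected. The follicle markers amh, amhr2, cyp11a1, cyp19a1 and lhcgr had no counts or no row there. Called higher in the vegetal region were 7 of 8 tested follicle rows and 2 of 2 tested blood rows, against 13.9% of all genes. In X. tropicalis the follicle markers summed to 4.56 and 15.4 CPM in the vegetal region, against 4.65 and 11.4 CPM in the animal region. Of the 15 symbols 1 or 2 had counts in a region, and a symbol without a row also counts as not detected. Blood markers did not exceed 0.886 CPM in either region of X. tropicalis. The part of adhering cells in the vegetal calls was not tested.

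Within the vegetal region, the tip (the last 10% of the sections) was compared with the rest. The level of otx1.L was 4331 and 3275 CPM in the tip, against 2123 and 1822 CPM in the rest. In X. tropicalis, otx1 had 3819 and 2625 CPM in the tip, against 2102 and 1156 CPM in the rest. The level in the tip was higher in all 4 oocytes, by 1.80-fold to 2.27-fold. In counts, the tip held 2342 of 9778 and 2052 of 13168 vegetal otx1.L counts, in 6 of 20 and 7 of 24 sections. For X. tropicalis otx1 these were 963 of 5043 and 640 of 2384, in 7 of 23 sections each. A higher level in the tip cannot be told apart from less of all other RNA there.

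For otx1.L the log2 fold change was 0.94 ± 0.29 (SE, edgeR adjusted p = 0.0212), and for otx1 in X. tropicalis it was 1.02 ± 0.20 (edgeR adjusted p = 0.000162). The share of genes called higher in the tip was 5.95% of 13919 in X. laevis and 0.647% of 8188 in X. tropicalis, and with either direction it was 7.61% and 0.989%. The median of all genes was -0.23 in X. laevis and -0.19 in X. tropicalis, so that relative to it otx1.L was higher by 1.17 and otx1 by 1.21. Without the detached section the X. tropicalis values of otx1 were 4988 CPM in the tip and 1976 CPM in the rest of oocyte 1, and the log2 fold change was 1.26 with both oocytes. These calls are sensitive to the definition of the tip: with the last 5% of the sections the adjusted p-values were 0.401 in X. laevis and 0.794 in X. tropicalis, and without the oocyte as a block they were 0.135 and 0.999. With all sections kept, the values turned to -0.64 and -2.92. The tip then consisted mostly of nearly empty wells, but in X. tropicalis oocyte 1 the detached section gave 64765 of its 74890 counts. In X. laevis oocyte 2 this tip also reached into sections kept in the main setting. With a stricter section minimum of 25% the edgeR adjusted p in X. laevis was 0.294.

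No vegt row was called in this comparison, by edgeR or by DESeq2. In the tip, vegt.L had 756 and 916 CPM, against 945 and 1190 CPM in the rest of the vegetal region. For vegt.S the values were 390 and 436 CPM in the tip, against 486 and 605 CPM in the rest. For X. tropicalis vegt they were 2161 and 1612 CPM in the tip, against 3103 and 1616 CPM in the rest. The log2 fold changes were -0.35 ± 0.24 (SE) for vegt.L, -0.40 ± 0.22 for vegt.S and -0.27 ± 0.21 for vegt, with edgeR adjusted p-values of 0.412, 0.296 and 0.678 and unadjusted p-values of 0.147, 0.0749 and 0.197. Approximate 95% intervals were -0.82 to 0.12, -0.83 to 0.04 and -0.67 to 0.14. Relative to the median of all genes in the same fit, the values were -0.12 for vegt.L, -0.16 for vegt.S and -0.08 for vegt. Without the detached section X. tropicalis oocyte 1 had 2769 CPM in the tip and 3156 CPM in the rest, and the log2 fold change was -0.10.

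Set against otx1 in the same sections, vegt counts were scarcer in the tip. With both copies summed, X. laevis had 0.265 and 0.413 vegt counts per otx1 count in the tip, against 0.674 and 0.985 in the rest. X. tropicalis had 0.566 and 0.614 in the tip, against 1.48 and 1.40 in the rest. The log2 difference was between -1.38 and -1.19 in the 4 oocytes, and was not tested.

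Markers of other cells were also higher in the X. laevis tip. Follicle cell markers summed to 344 and 346 CPM in the tip, against 75.9 and 128 CPM in the rest, and blood markers to 2297 and 626 CPM in the tip, against 379 and 269 CPM in the rest. Called higher in the tip were 5 of 8 follicle rows and 2 of 2 blood rows, against 5.95% of all genes. Their part in the tip result of otx1.L was not tested. In X. tropicalis, blood markers were at 0 or 1 count in tip and rest, and follicle markers at 1 and 5 counts in the tip, against 9 and 22 in the rest. The 16 oocyte markers, dazl among them, also summed to more in the tip. They had 2728 and 2915 CPM there in X. laevis, against 1520 and 1799 CPM in the rest. In X. tropicalis these sums were 5290 and 2326 CPM in the tip, against 2632 and 1278 CPM in the rest. Called higher were 1 of 12 rows in X. laevis, with 1 lower, and 2 of 14 in X. tropicalis. Over all genes 5.95% and 0.647% were called higher.

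The profiles of the L and S copies of vegt overlapped closely. Their profiles over 20 bins overlapped by 96.8% and 96.6%, the highest overlap that either copy had with any of 12210 genes. Over the whole oocyte there were 1.84 and 1.93 vegt.L counts per vegt.S count. The ratio was 1.95 and 1.98 in the vegetal region, 1.78 and 1.89 in the middle region and 1.56 and 1.77 in the animal region. As a share of both copies, vegt.L took 66.05% (95% exact binomial interval 64.8 to 67.3) in the vegetal region of oocyte 1, against 60.97% (56.5 to 65.3) in its animal region. In oocyte 2 the share was 66.4% (65.6 to 67.3) in the vegetal region, against 63.9% (60.04 to 67.7) in the animal region. The intervals overlap in both oocytes and cover counting error only. How reads that could match both copies were divided is not given in the sources used here. The ratio and the overlap of the profiles are therefore both uncertain.

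The species were then compared in one fit over 6976 symbols shared by both frogs, with X. laevis copies summed. The vegetal level of vegt over its animal level was 30.5-fold and 28.4-fold for vegt.L and 24.5-fold and 25.5-fold for vegt.S in X. laevis, against 47.3-fold and 45.6-fold in X. tropicalis. All X. laevis ratios lay below both X. tropicalis ratios, but the share of other genes separated in this way is not given here. The species by region term was -0.75 ± 0.18 (SE, log2, edgeR adjusted p = 0.000610), and 9.35% of the genes had a term called lower, 19.8% in either direction. Without the oocyte as a block the adjusted p was 0.755, and with all sections it was 0.0692. For otx1 the ratio was 47.2-fold and 29.3-fold in X. laevis, against 54.2-fold and 31.5-fold in X. tropicalis. The term was -0.18 ± 0.19 (edgeR adjusted p = 0.596, approximate 95% interval -0.55 to 0.19). Leaving out X. tropicalis oocyte 2 gave a called -0.55 (edgeR adjusted p = 0.0272), and leaving out X. tropicalis oocyte 1 or X. laevis oocyte 2 gave 0.24 and 0.17. Section thickness, genome annotation and library differ with the species, and their part cannot be told apart from that of the species.

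The level over the whole oocyte varied more for vegt than for otx1. Both vegt copies together had 410 and 704 CPM in X. laevis, against 867 and 428 CPM in X. tropicalis, and the species overlapped. The difference between the oocytes of a species was 1.72-fold in X. laevis and 2.02-fold in X. tropicalis. For otx1 the level was 447 and 548 CPM in X. laevis, against 371 and 269 CPM in X. tropicalis. The oocytes of a species differed by 1.23-fold and 1.38-fold for this gene, and both X. laevis values lay above both X. tropicalis values. How many other genes separate the species in this way is not given here. All of these differences between oocytes exceeded the 95% counting intervals.

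In the test of levels between species the log2 fold change was 0.64 ± 0.27 (SE) for otx1 (edgeR adjusted p = 0.0610) and -0.22 ± 0.39 for vegt (edgeR adjusted p = 0.632). Neither was called, while of 7217 symbols 26.2% were called higher and 43.8% lower in X. laevis. The median of all symbols was -0.48. Relative to this median otx1 was higher in X. laevis by 1.11 and vegt by 0.26, and with TMM factors, which move the median of all genes to 0.03, otx1 was called at 1.15 and the sign of vegt turned to 0.30. Leaving out X. tropicalis oocyte 1 gave 0.89 for otx1 (edgeR adjusted p = 0.000312) and 0.38 for vegt. Leaving out X. tropicalis oocyte 2 gave 0.42 for otx1 and a called -0.64 for vegt (edgeR adjusted p = 0.0105).

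**Figure D4:**
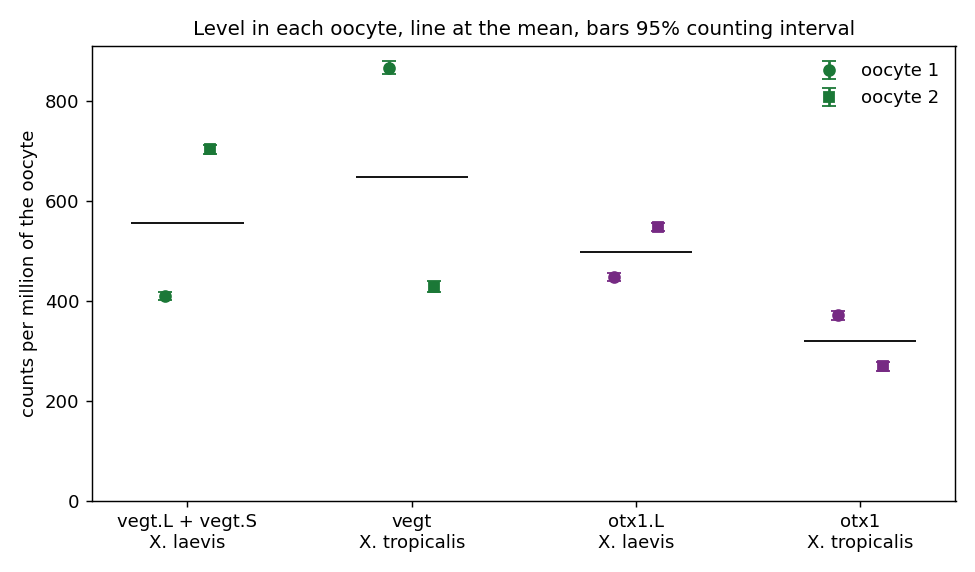
Level of vegt (green) and otx1 (purple) over all kept sections of an oocyte in CPM, X. laevis left of X. tropicalis for each gene, with 1 point per oocyte, 95% counting intervals as bars and a line at the mean of 2 oocytes. The vegt points of the species overlap (410 and 704 against 867 and 428), and the otx1 points do not (447 and 548 against 371 and 269).

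To place the members among other RNAs, profiles over 20 equal bins were compared by the share of the level that 2 genes have in common, averaged over both oocytes. For otx1.L the most similar of 12210 genes were LOC108704008, acsl1.S, LOC108718339, cnppd1.L and gdf1.L, at 95.8% to 90.04%. The gene gdf1 encodes Vg1, a TGF-beta signal of the vegetal oocyte. For X. tropicalis otx1 they were LOC100485551, mov10, mogat1-like.2, rdh10 and wnt5a, at 92.2% to 90.2% among 7431 genes. Of these, rdh10 makes retinaldehyde for retinoic acid synthesis and wnt5a is a Wnt ligand.

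Apart from the other copy, the genes most like vegt.L included MGC82549, znf484.L and sox7.L, at 92.1% to 91.8%. For vegt.S they included znf484.L, MGC82549 and LOC108719112, at 92.6% to 91%. X. tropicalis vegt was most like ier5, plk3, emc7, znf3 and wsb1, at 89.6% to 86.7%. In the tip, 4 of the 5 genes most like otx1.L and all 5 most like otx1 were called higher by edgeR, at 0.69 to 0.98 and at 0.87 to 1.43. Over all genes 5.95% were called higher there in X. laevis and 0.647% in X. tropicalis. Of the vegt lists znf484.L was called lower at -0.73 (edgeR adjusted p = 0.0218). All of these genes were chosen for their likeness on the same sections, tip included. Their tip values were thus largely fixed by the choice and give no separate result. No gene was among the 5 most similar to both vegt and otx1. Lists of 5 among 12210 or 7431 genes are so short that this gives no result. In X. tropicalis otx1 was at place 174 of the genes ranked by likeness to vegt, with 71.01% in common, against a median of 51.6% for all genes. In X. laevis otx1.L was at place 236 for vegt.L, with 71.8% in common. By the centre of mass, 17 of 12210 X. laevis genes lay more vegetally than otx1.L, and 69 and 79 more vegetally than vegt.L and vegt.S. In X. tropicalis these numbers were 19 for otx1 and 57 for vegt among 7431 genes.

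Other vegetal RNAs showed where the members fall in the range of known patterns. Of 18 listed symbols, 16 of 16 tested rows in X. laevis and 16 of 17 in X. tropicalis were called higher in the vegetal region. Over all genes these shares were 13.9% and 9.62%. The median log2 fold changes of the list were 4.95 and 5.19. The values of vegt and otx1 lie close to these medians. The highest rows were nanos1.L at 8.06 and grip2.L at 7.69 in X. laevis, and nanos1 at 7.89 and grip2 at 7.30 in X. tropicalis. The lowest were plin2.L at 2.23 and rtn3.L at 3.12 in X. laevis, and plin2 at 1.73 and spire1 at 0.01 in X. tropicalis, of which spire1 was not called. Against the rest of the vegetal region, 10 of 16 rows in X. laevis and 12 of 17 in X. tropicalis were called higher in the tip. Over all genes these shares were 5.95% and 0.647%. The median log2 fold changes of the list in the tip were 1.29 and 1.58. There the germ plasm RNA grip2.L reached 5.07, nanos1.L 4.66, pgat 6.22 and grip2 5.98, while sox7.L and velo1.L had -0.18 and -0.12 and were not called. The otx1 values of 0.94 and 1.02 lay below the list medians of the tip. They lay between the values of the germ plasm RNAs named here and those of vegt.

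A list of 12 maternal factors, headed as partners of VegT and Otx1, was compared in the same way. It was drawn broadly and also holds foxi2 and sox3, so that not every member is a partner. In X. laevis 5 of 13 tested rows were called higher and 3 lower in the vegetal region (median 0.33), and in X. tropicalis 3 of 10 higher and 1 lower (median 0.24). Over all genes the shares were 13.9% higher and 17.3% lower in X. laevis and 9.62% higher and 17.4% lower in X. tropicalis, and with so few rows the counts give no result about this list. Sox7, an endodermal SRY-box factor, was the highest, with 4.77 for sox7.L and 3.41 for sox7. The animal factor foxi2, which activates ectoderm genes, was the lowest, with -2.39 for foxi2.S, -2.06 for foxi2.L and -2.50 for foxi2. The next row from the top was pou5f3.1 at 0.71 in X. laevis, which was not called, and pou5f3.2 at 0.72 in X. tropicalis, which was called. The second lowest row in X. tropicalis, tcf7l1 at -0.18, was not called. In the tip they ran between -1.50 (foxi2.L) and -0.03 (tcf7l1.L) in X. laevis and between -0.62 (sox3) and 0.79 (foxi2) in X. tropicalis, and these rows did not pass the test.

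Few related genes of both families had enough counts for the test of the regions. Of 17 other T-box symbols, 1 row in X. laevis (tbx3.S at -0.26) and 2 in X. tropicalis (mga at 0.07 and tbr1 at -0.0027) were tested, and none was called (edgeR adjusted p of 0.547 to 0.996). Of 7 other symbols related to Otx, otx2.L at -0.14 and gsc.S at -0.20 were tested in X. laevis and otx2 at -1.01 in X. tropicalis, again without a call (edgeR adjusted p of 0.178 to 0.632). The counts of tbr1 came almost all from X. tropicalis oocyte 2, and those of otx2 and gsc in X. laevis mostly from oocyte 1. These values thus rest mainly on a single oocyte, with the counts given under other observations.

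Zygotic targets of VegT such as the Nodal ligands and mix1 are switched on in the embryo, after fertilization. Of 35 listed symbols, 8 rows in X. laevis and 4 symbols in X. tropicalis were tested. In X. laevis 6 were called higher and 1 lower in the vegetal region, where 13.9% of all genes were higher and 17.3% lower. In X. tropicalis 1 was called higher, against 9.62% of all genes. The highest were snai1.L at 4.41 and gata6.L at 2.06 in X. laevis, and snai1 at 3.24 in X. tropicalis, followed by hhex at 0.32, which was not called. The lowest were sox17b.1.S at -0.75, which was called, and gata5.S at 1.17, which was not, in X. laevis, and gata5 at -0.27 and gdf3 at 0.11 in X. tropicalis, neither of which was called. In the X. laevis tip 4 of 6 rows were called higher, against 5.95% of all genes, among them sox17a.L at 2.37 and gata4.L at 2.36, while snai1.L at 0.93 and sox17b.1.S at -0.34 were not. Follicle cell markers were higher in the same places of X. laevis (medians of 1.89 in the vegetal region and 1.56 in the tip), and their part in these calls was not tested. Neither tip row in X. tropicalis, snai1 at 0.14 and gata5 at -0.37, was called.

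Among the 23 RNA localization factors, which bind or carry vegetal RNAs, 6 of 26 rows in X. laevis were called higher and 5 lower in the vegetal region (median 0.07), and 4 of 20 higher and 2 lower in X. tropicalis (median 0.01). The shares over all genes, again 13.9% and 17.3% in X. laevis and 9.62% and 17.4% in X. tropicalis, lie within a few rows of these counts, which give no result about the list. The highest were rbpms2 at 1.93 and rbpms2.L at 1.51 in X. laevis, and kif3b, a kinesin subunit, at 2.25 and rbpms2 at 1.88 in X. tropicalis. The lowest were khsrp.L at -0.84 and upf1.S at -0.80 in X. laevis, and ptbp1 at -1.01 and khsrp at -0.78 in X. tropicalis.

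In contrast to the frog oocytes, the zebrafish gene otx1 was spread along the axis of the one-cell embryo. It had 362, 150.0 and 152 CPM in the vegetal region of embryos 1, 2 and 3, against 458, 148 and 203 CPM in the animal region. The vegetal value was lower in 2 of 3 embryos. The log2 fold change was -0.25 ± 0.15 (SE, edgeR adjusted p = 0.211), where 32.8% of 9620 genes were called, 4.35% higher and 28.5% lower, and the median of all genes was -0.29. With TMM factors it was 0.039. The difference between frog and zebrafish was not tested. The frog samples were oocytes, whereas the zebrafish embryos were taken after fertilization, so that species and stage cannot be told apart here. The zebrafish T-box gene tbx16, a relative of vegt, had 2.004 expected counts in all kept sections of embryo 3 and was not analysed in embryos 1 and 2.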

How the data were processed

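Sections of each oocyte or embryo were sequenced from the 3′ end with section barcodes and UMIs (6 nt in the frogs). Per the methods, the authors mapped reads with STAR 2.5.3a to the genomes of X. laevis, X. tropicalis and zebrafish (GRCz10). For the frogs the authors deposited whole-number UMI counts per gene and section with no correction for shared UMIs (highest value 4106, above the 4096 possible UMIs). For zebrafish they deposited expected counts, corrected for shared UMIs, which were rounded for the test. The scSLAM-seq library of the series was not used here. Section numbers run from the animal to the vegetal end.

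Sections below 10% of the median section were dropped, since spike-in counts were 2, 14446, 115825 and 0 in X. laevis oocytes 1 and 2 and X. tropicalis oocytes 1 and 2 and could not serve as a filter. The others formed 3 regions of equal section number (a remainder went to the middle). Counts were summed per region and tested with the glmQLFit and glmQLFTest functions of edgeR 4.0.16 (limma 3.58.1, under R 4.3.3), region totals as library sizes, filterByExpr at 10 counts, the oocyte or embryo as a block and Benjamini-Hochberg adjustment at 0.05. All regions of a pair come from 1 specimen, and the deviations of its regions from the region means correlated across genes at 0.494 in X. laevis and 0.732 in X. tropicalis for the vegetal and animal regions, and at 0.354 and 0.576 for tip and rest. Levels between species were tested without a block. Positions were measured on counts divided by the section total. DESeq2 1.42.0, TMM factors, other filters, other regions and leaving out each specimen were alternatives. Other steps used Python 3.11.15, numpy 2.4.6, pandas 2.3.3, scipy 1.17.1 and matplotlib 3.10.9.

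The members, lists and alternatives were chosen with earlier results of these data known. Named genes are the members, the 5 genes with the most similar profile among those with at least 200 counts in each oocyte, and for each list the 2 highest and 2 lowest tested rows. An item that this rule names is not reported here. Counting intervals (exact, 95%) cover counting error only. The oocytes of a species differed by more than sampling noise (chi-square per degree of freedom 35.5 in X. laevis and 95.7 in X. tropicalis) and were counted as 2 samples.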

Additional observations from a re-analysis of the deposited data

Results flagged for a closer look

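The vegetal to animal ratio of vegt differed between the frogs in the test of the species by region term, at -0.75 on the log2 scale for X. laevis minus X. tropicalis (SE 0.18, edgeR adjusted p = 0.000610). The ratio was lower in both X. laevis oocytes than in both X. tropicalis oocytes, for either copy. It kept its sign under all alternatives, at -0.99 to -0.72, but was not called without the oocyte as a block or with all sections kept.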

How the results depend on the processing

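All 55 alternative values of the frog members kept the vegetal direction, and each that allowed a test kept the call. In the tip, otx1.L had 0.95 without the replicate block, 0.85 with a section minimum of 25% and 0.62 with a tip of 5%, and otx1 had 0.98 without the block and 1.17 with a tip of 5%, none of them called. With all sections kept, the tip values of otx1.L and otx1 turned to -0.64 and -2.92, not called. This tip held 7158 to 177061 counts and consisted mostly of nearly empty wells. It also held the detached section in X. tropicalis oocyte 1 and kept sections in X. laevis oocyte 2. The species term of vegt was -0.75 without the block and -0.99 with all sections, neither called, and that of otx1 ran from -0.55 (called, without X. tropicalis oocyte 2) to 0.24 over the oocytes left out. The level of otx1 was called at 1.15 with TMM, 1.16 with DESeq2 and 0.72 with the 25% minimum, and ran from 0.42 to 0.89 over oocytes left out, while that of vegt was 0.30 with TMM and 0.31 with DESeq2 and ran from -0.66 to 0.38. Replicate numbers do not pair oocytes of different species, and a replicate block changed no level call. Zebrafish otx1 was 0.039 with TMM and 0.067 with DESeq2. The centre of vegt was closer to the animal end than that of otx1 in 4 oocytes under the settings run, by -1.85 (vegt.L), -4.33 (vegt.S) and -5.13 points (vegt) with all sections and by -6.60 points (vegt) with raw counts, as means of 2 oocytes. The smallest gap was that of X. laevis oocyte 1 with all sections (67.96 for vegt.L and 68.7 for otx1.L). Added were 2 alternatives chosen after seeing the data: leaving out the detached section and a correction for shared UMIs. Neither changed a call on a member.

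Counts of genes called over the whole table moved more. Between the vegetal and the animal region, X. tropicalis had 2773, against 1210 with DESeq2 and 255 without the block. X. laevis had 5413, against 2375 with DESeq2, 1906 without the block and 2136 with all sections. Zebrafish had 3159, against 1909 with TMM, 1051 with DESeq2, 0 without the block (132 at an unadjusted p under 0.05) and 1795 to 2485 with an embryo left out. The X. tropicalis tip had 81, against 50 with TMM, 36 with DESeq2, 9 without the block, 4 with all sections, 139 with the 25% minimum, 14 with a tip of 5% and 364 without the detached section. The X. laevis tip had 1059, against 489 with DESeq2, 267 without the block, 2 with all sections and 295 with the 25% minimum. The species term had 1383, against 675 with DESeq2, 87 without the block, 391 with all sections and 772 to 1516 with an oocyte left out. With TMM factors the share of higher calls was 51.5% in place of 13.2% in zebrafish, 98% in place of 65.4% in the X. tropicalis tip, 95.5% in place of 78.2% in the X. laevis tip and 51.02% in place of 37.5% in the level comparison. With 2 oocytes per species, the spread rests on the dispersion shared across genes.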

Other observations

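Some relatives of the members varied between the oocytes of a species more than vegt and otx1 did. They were picked after their values were seen. In X. tropicalis, tbr1, a T-box gene, had 4 counts (0.196 CPM) in oocyte 1 and 630 counts (47.6 CPM) in oocyte 2. In X. laevis, otx2 had 1158 counts (39.7 CPM) in oocyte 1 and 107 counts (3.25 CPM) in oocyte 2, and the homeobox gene gsc had 627 counts (21.5 CPM) in oocyte 1 and 29 counts (0.880 CPM) in oocyte 2. In X. tropicalis, otx2 had 117 and 42 counts (5.74 and 3.17 CPM).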
